A study of Mus musculus with 4 samples.

Results

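In the pancreas, 1184 of the 15824 NFIC peaks (7.48%, 95% confidence interval 7.08 to 7.90) lay in an intron of one transcript while the nearest transcription start site (TSS) lay downstream of them. They were chosen by 2 columns of the peak list, the annotation, which had to name an intron, and the distance to the nearest TSS, which had to be negative. They made up 18.3% of the 6454 intron peaks (17.4 to 19.3), and are called upstream intron peaks here. The gene whose intron holds the peak is called the host gene, and the gene of the nearest TSS the nearest gene. NFIC-bound DNA was isolated with an anti-NFIC antibody (Bethyl A303-123A) from pancreas of wild-type mice aged 8 to 12 weeks and of a strain given as Mixed, and sequenced in 3 libraries beside 1 library of input DNA. Whole pancreas was used, a tissue in which acinar cells prevail and duct, islet, stromal and immune cells are also present. The authors deposited a merged list on the mouse build mm10 without values per library, so no spread between libraries can be given and the depth is unknown. Intervals in brackets are 95% Wilson intervals for shares and Newcombe intervals for differences between shares, and cover counting error only, since peaks of 1 merged list are not replicates.

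NFIC belongs to the nuclear factor I (NFI) transcription factors, which bind as dimers to a palindrome made of a pair of arms separated by a short spacer. Binding sites in introns are often enhancers, which can act on the gene that holds them, on a neighbouring gene or on another promoter of the same gene. Annotation to the nearest TSS names 1 gene for each peak and does not show which gene a site acts on. In acinar cells, which make and secrete digestive enzymes, the PTF1 complex with PTF1A and RBPJL activates the genes of those enzymes. MIST1 (encoded by *Bhlha15*) is among further transcription factors implicated in acinar differentiation.

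The NFI full site was searched as TGGCNNNNNGCCA on both strands in windows that reached 100 bp to each side of the peak centre, 200 bp in all, and 1 of its 8 fixed bases was allowed to differ. The 10 sites that follow had no mismatch, as in 194 of the 1184 peaks, and were chosen to show the site with its flanks at peaks with scores from 32.3 down to 5.38 and at genes described further on. Each is named by its nearest gene, followed by the host gene where that is another gene, with its position on the forward strand of mm10. Capitals mark the arms of the site.
*Slc9a3r1* in *Rab37*, chr11:115160140-115160182: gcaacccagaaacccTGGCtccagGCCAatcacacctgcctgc
*Tex26* in *Medag*, chr5:149429112-149429154: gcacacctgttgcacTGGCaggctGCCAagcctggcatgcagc
*Ripk4* in *Prdm15*, chr16:97805129-97805171: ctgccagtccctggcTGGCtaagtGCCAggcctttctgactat
*Cic*, chr7:25279144-25279186: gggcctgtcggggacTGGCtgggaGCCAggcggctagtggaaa
*Herpud1* in *Slc12a3*, chr8:94358789-94358831: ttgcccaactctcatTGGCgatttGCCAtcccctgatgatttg
*Nfia*, chr4:97776492-97776534: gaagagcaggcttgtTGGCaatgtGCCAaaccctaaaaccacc
*Uqcr11* in *Tcf3*, chr10:80418438-80418480: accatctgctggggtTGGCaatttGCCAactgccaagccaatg
*Rxra*, chr2:27699678-27699720: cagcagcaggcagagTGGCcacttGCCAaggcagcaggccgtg
*Neil2* in *Gata4*, chr14:63210050-63210092: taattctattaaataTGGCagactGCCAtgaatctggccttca
*Tcf12*, chr9:71905582-71905624: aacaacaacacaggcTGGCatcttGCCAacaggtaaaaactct

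The arms are alike in these sites because sites without a mismatch were chosen. The next 6 sequences are whole peaks of 173 bp, the width of all peaks in the list, and show the range of sequences under upstream intron peaks. The first holds the highest score, and the next 2 hold sites with 1 mismatch, written in lower case within the site. The last 3 had no NFI full site in the window of 200 bp. That of *Rbpjl* held the NFI arm TTGGCA alone, here as its reverse complement, that of *Vav3* held an E-box, and that of *Nr4a2* held none of the motifs searched.
*Gm15735* in *Ggact*, chr14:122903029-122903201: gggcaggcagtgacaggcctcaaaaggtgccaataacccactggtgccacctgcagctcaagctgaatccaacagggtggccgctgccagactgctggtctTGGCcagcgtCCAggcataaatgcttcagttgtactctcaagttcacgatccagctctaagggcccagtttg
*Rara*, chr11:98951430-98951602: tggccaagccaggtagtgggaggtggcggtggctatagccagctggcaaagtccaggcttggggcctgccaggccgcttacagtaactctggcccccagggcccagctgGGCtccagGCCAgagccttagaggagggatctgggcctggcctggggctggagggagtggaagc
*Bhlha15* in *Lmtk2*, chr5:144163255-144163427: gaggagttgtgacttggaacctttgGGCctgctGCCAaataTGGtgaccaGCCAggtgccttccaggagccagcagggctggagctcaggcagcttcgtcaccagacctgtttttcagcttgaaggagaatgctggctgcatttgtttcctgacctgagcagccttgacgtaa
*Rbpjl* in *Matn4*, chr2:164401729-164401901: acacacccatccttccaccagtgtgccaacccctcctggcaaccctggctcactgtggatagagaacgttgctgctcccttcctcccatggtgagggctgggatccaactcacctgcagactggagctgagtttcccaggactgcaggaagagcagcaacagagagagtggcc
*Vav3*, chr3:109513823-109513995: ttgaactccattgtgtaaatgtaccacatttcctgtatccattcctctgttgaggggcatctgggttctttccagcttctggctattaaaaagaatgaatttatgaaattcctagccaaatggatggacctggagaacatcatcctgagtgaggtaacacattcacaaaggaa
*Nr4a2* in *BB557941*, chr2:57148327-57148499: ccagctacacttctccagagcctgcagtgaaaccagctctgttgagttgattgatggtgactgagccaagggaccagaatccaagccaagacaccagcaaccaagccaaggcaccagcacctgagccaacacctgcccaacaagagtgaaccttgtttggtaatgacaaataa

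The nearest TSS belonged to the host gene itself in 296 of the 1184 upstream intron peaks (25%, 22.6 to 27.5), which then lay between the start of the annotated host transcript and a more downstream start of the same gene. In 466 peaks (39.4%, 36.6 to 42.2) it belonged to another gene on the same strand that started beyond the end of the annotated host transcript. It belonged to a gene on the opposite strand in 280 peaks (23.6%, 21.3 to 26.2). In 113 (9.54%, 8.00 to 11.4) it belonged to another gene that started inside the host transcript on the same strand. The other 29 peaks could not be sorted, because the host or nearest transcript is not placed at that position in the RefSeq copy used here. These classes are set in part by the rule itself, which takes peaks upstream of a TSS. The peaks had 872 nearest genes and 833 named host genes. A single upstream intron peak was found for 659 of the nearest genes and 617 of the hosts. For 397 of the nearest genes, some with several peaks, every peak assigned to the gene in the whole list was an upstream intron peak.

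The distance to the nearest TSS had a median of -22447 bp, with quartiles of -47000 and -9566 bp. It ranged from -804522 bp, in *Ptprd*, to -1001 bp, upstream of *Tmem259*. From -50000 to -10000 bp lay 599 peaks (50.6%, 47.7 to 53.4), 168 lay within 5000 bp, and 101 lay beyond 100000 bp. The median was -12935 bp for peaks whose nearest gene was the host, -14612 bp for another gene starting inside the host, -20227 bp for the opposite strand and -31081 bp for a gene beyond the host. To the start of their own host transcript, the peaks had a median distance of 57675 bp, over 1167 peaks with a placed host. The median length of the host transcripts, counted per peak, was 102873 bp. The median intron number was 4. It was 1 for peaks whose nearest gene was the host and 8 for those upstream of a gene beyond the host. In all, 272 peaks (23.0%, 20.7 to 25.5) lay in the first and 118 (9.97%, 8.39 to 11.8) in the last intron.

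**Figure D1:**
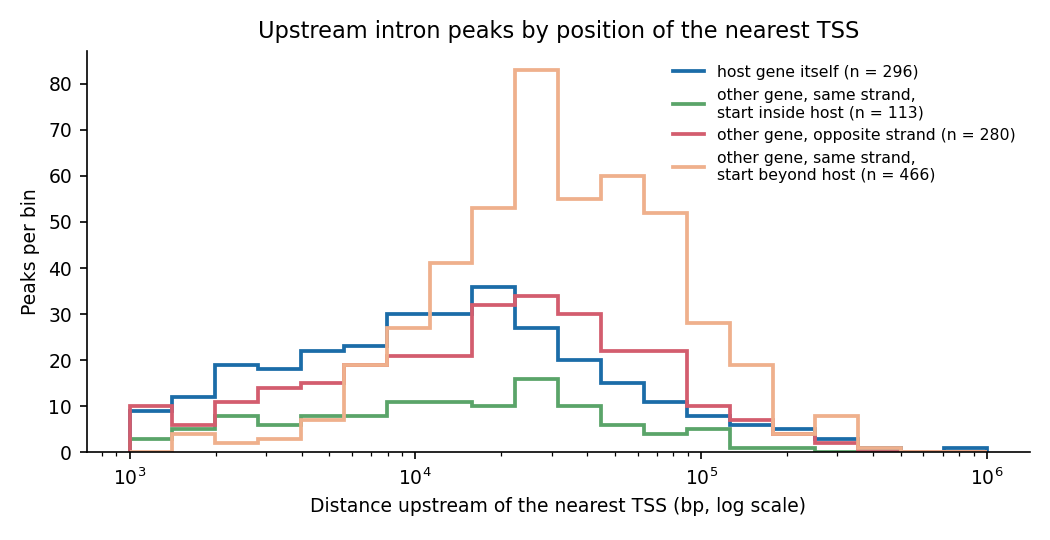
Number of upstream intron peaks (vertical axis) by distance upstream of the nearest TSS in bp (horizontal axis, log scale). Lines separate the positions of that TSS relative to the host gene or its annotated transcript. Peaks upstream of a gene beyond the host lay farthest, with a median of -31081 bp, and peaks upstream of another start of the host gene lay closest, with a median of -12935 bp.

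At the edge of the rule, the 5 peaks closest to a TSS lay from -1001 to -1033 bp, near *Tmem259*, *E130317F20Rik*, *Epb41*, *Setd7* and *Mir7655*, with scores from 5.58 to 10.2. The 5 intron peaks just outside it lay from 103 to 115 bp past the TSS, at *Golm1*, *Tab1*, *Thnsl2*, *1300002E11Rik* and *Zfp512b*, with scores from 3.59 to 4.98. No intron peak lies between these values, since the annotation of the authors puts positions around a TSS in a promoter class.

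A microRNA was the nearest gene of 124 upstream intron peaks (10.5%, 8.85 to 12.3). The nearest gene was of the annotated type ncRNA, microRNAs included, in 353 (29.8%, 27.3 to 32.5), and in 2 more it was a small nucleolar RNA. MicroRNAs were recognised by gene name, a search that would also take in microRNA host genes such as *Mir22hg*. MicroRNAs were nearest to 2.92% of all peaks in the list, 2.18% of the intron peaks downstream of their TSS (1.82 to 2.61) and 1.799% of the intergenic peaks upstream of theirs (1.39 to 2.32). For the type ncRNA the shares were 12.6%, 8.44% and 14.3%. The rule itself favours microRNAs, because a microRNA lodged within an intron supplies a start site downstream of peaks in that intron, so these shares are a description. The highest peak of this kind had a score of 27.1 and lay at -23841 bp from *Mir6403*, in intron 3 of *Man1c1*, which encodes a Golgi mannosidase. *Mir6995*, *Mir3092*, *Mir7049* and 6 other microRNAs were each nearest to 3 upstream intron peaks.

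The peak score, the authors' own value on a scale not given in the sources used here, had a median of 6.77 in upstream intron peaks and 6.57 in the whole list. It ranged from 3.39 to 36.4. The score was at or above the list median in 54.4% (51.5 to 57.2), against 53.5% of intron peaks downstream of their TSS, a difference of 0.862 percentage points (-2.29 to 3.99). Against upstream intergenic peaks, the difference was 2.69 points (-0.641 to 5.99). Neither difference left its counting error. Against all other peaks, promoter peaks included, it was 2.97 points (0.0117 to 5.90), an interval that narrowly left out 0. The focus ratio, a fraction that the list gives for each peak, had a median of 0.692, against 0.684 in the whole list. The share at or above that list median was 1.92 points above that of downstream intron peaks (-1.22 to 5.04) and 5.07 points above that of all other peaks (2.11 to 7.99).

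The highest score, 36.4, belonged to the peak in intron 1 of *Ggact*, a cyclotransferase gene, at -9915 bp from the non-coding gene *Gm15735* on the opposite strand. The second, 32.3, lay in intron 6 of *Rab37*, encoding a small GTPase of vesicle transport, at -3151 bp from *Slc9a3r1*, which encodes a scaffold protein of the apical membrane. Both peaks held an NFI full site, without a mismatch in that of *Rab37*. Among the 10 highest peaks, 4 lay upstream of another start of their own host gene. These were in *Ablim1*, which encodes an actin-binding protein (27.7), *Vav3* (25.5), *Rara*, the retinoic acid receptor alpha (23.7), and *Usp2*, a deubiquitinase (22.7). The others were those of *Man1c1* (27.1), *Auts2* upstream of *Gm29681* (24.5), *Medag* upstream of *Tex26* (24.1) and *Prdm15* upstream of *Ripk4*, a protein kinase of epithelial differentiation (23.5). An NFI full site was found in 9 of the 10, the exception being the peak of *Vav3*. The next highest of the peaks upstream of a start of their host (20.1) lay in a CpG island of *Cic*, a transcriptional repressor gene, at -3010 bp from that start.

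An NFI full site was present in 666 of the 1184 upstream intron peaks (56.25%, 53.4 to 59.1). Windows of the same size taken 1000 bp away on either side, which were not matched on base composition, held it in 10.2% (9.06 to 11.5), a difference of 46.0 points (42.9 to 49.1). Without a mismatch, the shares were 16.4% and 0.507%. The share was 57.0% in intron peaks downstream of their TSS, from which upstream intron peaks differed by -0.771 points (-3.91 to 2.33). It was 55.0% in upstream intergenic peaks, with a difference of 1.26 points (-2.06 to 4.54). Both intervals included 0, and would also allow a difference of a few points. Against all 14640 other peaks, promoter peaks included, the share was higher by 4.84 points (1.88 to 7.75).

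The 5-base spacer stood out among the spacings of the arms. Arms without a mismatch were 5 bases apart in 194 peaks, while each other spacing from 2 to 9 bases was found in 8 to 22 peaks. In the windows beside, the 5-base spacing was found in 12 of 2368 windows and the others in 9 to 17. The sites were close to the peak centres. Of the 666 peaks with a site, the best one lay within 25 bp of the centre in 375 (56.3%, 52.5 to 60.0) and within 50 bp in 552 (82.9%, 79.8 to 85.6).

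**Figure D2:**
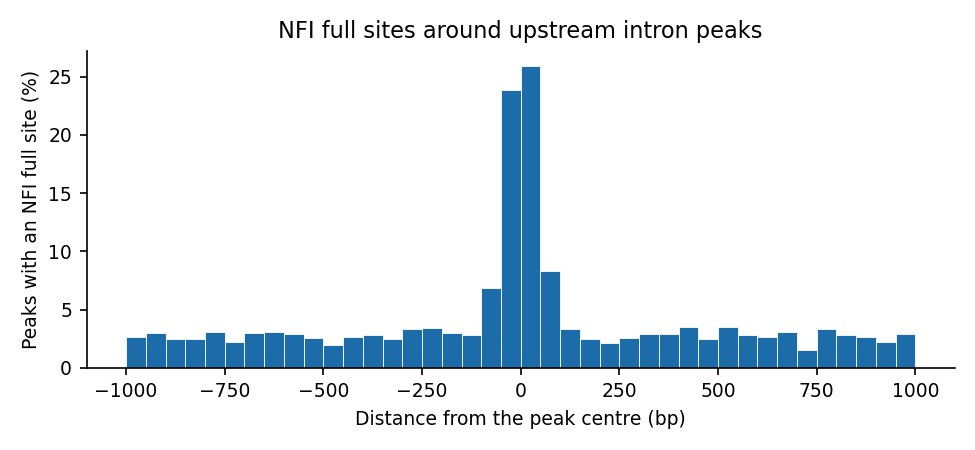
Share of the 1184 upstream intron peaks with an NFI full site (vertical axis, percent) in each bin of 50 bp around the peak centre (horizontal axis, distance in bp). The 2 bins beside the centre held a site in 23.8% and 25.9% of the peaks, and bins beyond 100 bp in 1.52% to 3.55%.

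An NFI full site occurred in 69.7% of upstream intron peaks in the highest quartile of the score of the whole list (Q1, 64.4 to 74.5) and in 45.7% of those in the lowest (Q4, 39.8 to 51.8), a difference of 24.0 points (15.9 to 31.6). Sites without a mismatch were present in 17.8% and 14.7% (difference 3.08 points, -3.07 to 9.03). The share also fell with the score in the compared classes. In Q1, downstream intron peaks had 70.05% (67.6 to 72.4) and upstream intergenic peaks 66.9% (63.6 to 70.1). In Q4, downstream intron peaks had 50.2% (47.4 to 53.1) and upstream intergenic peaks 49.1% (45.6 to 52.6). By position of the TSS, the share was 53.0% (47.4 to 58.7) where the nearest gene was the host and 58.6% (54.1 to 63.0) where it lay beyond the host, a difference of 5.54 points whose interval included 0 (-1.66 to 12.7). It was 54.0% within 10000 bp of the TSS, 57.0% from 10000 to 100000 bp and 57.4% beyond, and the difference between the first and all farther peaks was -3.03 points (-9.46 to 3.36).

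**Figure D3:**
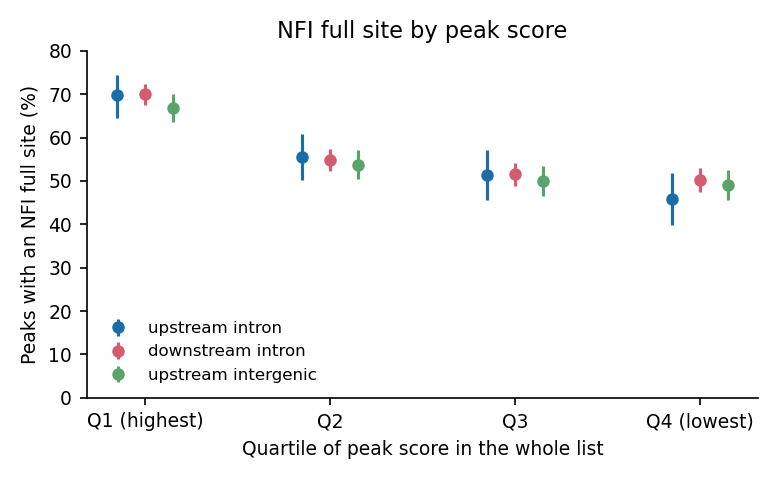
Share of peaks with an NFI full site (vertical axis, percent) by quartile of peak score in the whole list (horizontal axis), for upstream intron, downstream intron and upstream intergenic peaks. Points are shares and bars 95% Wilson intervals, and in upstream intron peaks the share went from 69.7% in Q1 to 45.7% in Q4. It went from 70.05% to 50.2% in downstream intron peaks and from 66.9% to 49.1% in upstream intergenic peaks.

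Motifs of other factors were searched without a mismatch in the same windows and on both strands. The E-box of bHLH factors (CAGATG or CAGCTG) was present in 36.7% of upstream intron peaks (34.0 to 39.4) and 25.6% of the windows beside. The motif of GATA factors, spelled GATAAG, was present in 10.2% against 5.36%, FOX (TGTTTAC or TATTTAC) in 9.46% against 4.73%, NR5A2 (CAAGGTCA or CAAGGCCA) in 6.17% against 3.93%, and SP (GGGCGG) in 8.28% against 3.63%. For these motifs the interval of the difference left out 0. AP-1 (TGACTCA) was present in 3.63% and 3.51%, a difference of 0.127 points (-1.11 to 1.52). The NFI arm TTGGCA, which can lie within a full site, occurred in 40.4% of the peaks and 10.3% of the windows beside, and 74.7% of the peaks held a full site or an arm (72.2 to 77.1). None of the motifs was found in 108 peaks (9.12%, 7.61 to 10.9).

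Against the 3 classes of downstream first intron, downstream later intron and upstream intergenic peaks, 27 differences in motif shares were computed. The 95% interval left out 0 in 6 of them, and in 1 when widened for 27 comparisons. That was the SP motif, bound by SP and KLF factors, which was present in 14.9% of downstream first-intron peaks and differed by -6.58 points in upstream intron peaks (-8.61 to -4.41). It was present in 6.41% of downstream later-intron peaks, from which upstream intron peaks differed by 1.87 points (0.131 to 3.78, an interval that included 0 once widened), and in 21.1% of the whole list, promoter peaks included. FOX was higher in upstream intron than in downstream intron peaks by 1.95 points (0.237 to 3.87), a difference whose 3 class intervals included 0 once widened. CpG islands held 20 upstream intron peaks (1.69%, 1.10 to 2.59) and 11.9% of downstream first-intron peaks, a difference of -10.2 points (-11.6 to -8.67). Many first-intron peaks lie close to their promoter. Against the 1969 that lay more than 1000 bp past the TSS, a restriction chosen after the data were seen, the difference in SP was 0.761 points (-1.14 to 2.78) and in CpG islands -0.698 points (-1.67 to 0.381). Beyond that distance, neither difference left its counting error.

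**Figure D4:**
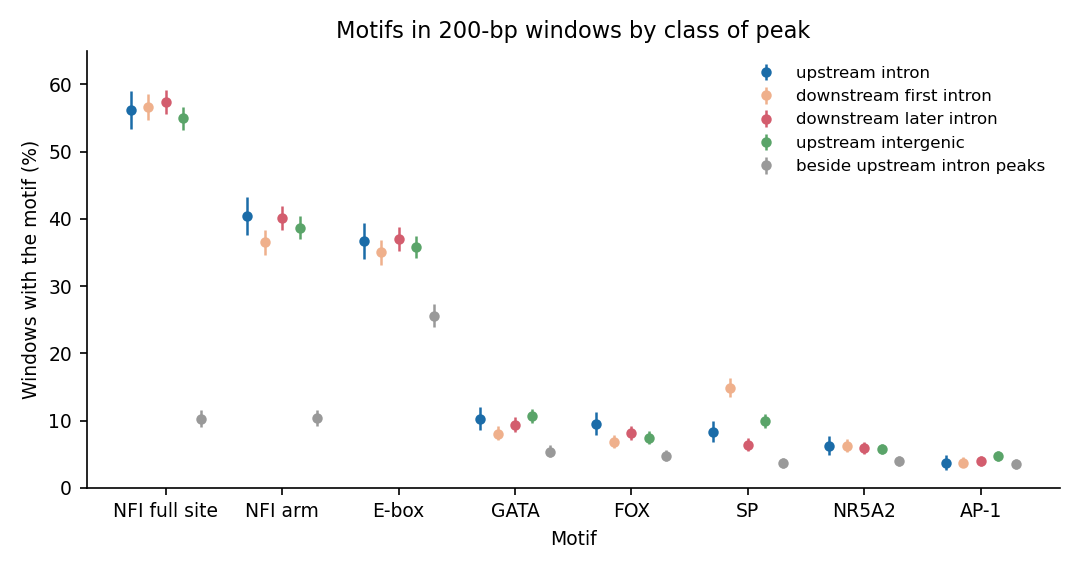
Share of 200-bp windows with each motif (vertical axis, percent; motifs on the horizontal axis) in upstream intron peaks, 3 other classes of peak and the windows 1000 bp beside upstream intron peaks. Points are shares and bars 95% Wilson intervals, and the SP motif separated upstream intron peaks, with 8.28%, from downstream first-intron peaks, with 14.9%.

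Within upstream intron peaks, GATA was less frequent where an NFI full site was present, 7.81% (6.004 to 10.1) of 666 peaks, than where it was not, 13.3% (10.7 to 16.5) of 518. The difference was -5.51 points (-9.18 to -2.01). Of the 7 motifs compared in this way, GATA was the one whose 95% interval left out 0. The difference was -3.09 points for FOX (-6.61 to 0.275), -3.13 points for the E-box (-8.67 to 2.39) and -0.365 points for NR5A2 (-3.26 to 2.38).

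Repeats held 175 upstream intron peaks (14.8%, 12.9 to 16.9), among them 74 in SINEs, 47 in LTR elements, 29 in LINEs and 17 in DNA transposons. The share was 10.5% in the whole list, 11.6% in downstream first-intron, 14.4% in downstream later-intron and 16.8% in upstream intergenic peaks. A full site was found in 57.7% of these peaks and 56.0% of the others, a difference of 1.72 points (-6.29 to 9.44). Their score was at or above the list median in 45.7%, against 55.9% of the others, a difference of -10.2 points (-18.0 to -2.17). Another NFIC peak lay within 10000 bp of 406 upstream intron peaks (34.3%, 31.6 to 37.0), against 33.8% in the whole list. In 283 of these cases at least 1 such neighbour was again an upstream intron peak. The rule favours this, since neighbouring peaks can share a host and a downstream TSS, and no like share was computed for other classes. Peaks within 10000 bp of their TSS had another NFIC peak within 10000 bp in 48.9% and farther peaks in 29.1%, a difference of 19.8 points (13.5 to 26.04). By class, the share was 32.5% in downstream later-intron peaks (difference 1.82 points, -1.37 to 5.07), 32.8% in upstream intergenic peaks (1.54 points, -1.58 to 4.72) and 43.8% in downstream first-intron peaks (-9.48 points, -12.8 to -6.13), of which the last interval left out 0.

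A gene was counted as having a promoter peak when a peak lay from -1000 bp to its TSS. This held for 128 of the 872 nearest genes of upstream intron peaks (14.7%, 12.5 to 17.2) and for 15.2% of the nearest genes of downstream intron peaks, sets that share genes, with a difference of -0.535 points (-3.04 to 2.22). It held for 15.5% of the nearest genes of upstream intergenic peaks and for 26.2% of the nearest genes of all peaks, promoter peaks included. Where the nearest gene was another gene than the host, 98 of 640 hosts (15.3%) and 79 of 665 nearest genes (11.9%) had a promoter peak, a difference of 3.43 points (-0.289 to 7.18). With protein-coding nearest genes alone, the shares were 64 of 419 hosts (15.3%) and 69 of 429 nearest genes (16.1%), a difference of -0.809 points (-5.71 to 4.11), so neither interval left out 0. Both intervals treat hosts and nearest genes as independent sets and ignore that they come in pairs. In the 665 pairs of a host and another nearest gene, both had a promoter peak in 13, the host alone in 89, the nearest gene alone in 67 and neither in 496. Neither gene of the pair thus had a promoter peak in 74.6% of the pairs (71.1 to 77.7). Protein-coding genes that were at once host and nearest gene had a promoter peak in 24.3%, 8.22 points more than protein-coding nearest genes that were not the host (1.74 to 15.2). These genes have more than 1 annotated start, and the part this plays was not tested.

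Upstream intron peaks were then looked up in 6 lists of genes. Of 21900 protein-coding genes in the RefSeq table, 2.84% were the nearest gene of an upstream intron peak, and 5.35% were its nearest or host gene. These shares are not matched on gene length, and long genes have more intron to hold a peak. Of 21 acinar regulators, 6 were nearest or host gene, with 9 peaks in all. Of 29 nuclear receptor genes there were 8, with 16 peaks, and of 28 genes of the unfolded protein response (UPR) and of endoplasmic reticulum (ER) chaperones there were 2, with 4 peaks. Of the 4 NFI genes *Nfia* was one, and of 19 duct and islet regulators *Glis3* was one. None of 36 digestive enzyme and secretory protein genes, of which 35 are in the RefSeq table by the name searched, was nearest or host gene. By any peak of the list, 34.9% of the 21900 protein-coding genes were the nearest gene of at least 1. This held for 20 of the 21 acinar regulators, 9 of the 19 duct and islet regulators, the 4 NFI genes, 26 of the 36 digestive enzyme and secretory protein genes, 21 of the 28 UPR and chaperone genes and 24 of the 29 nuclear receptor genes.

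*Bhlha15* had 4 upstream intron peaks, all within *Lmtk2*, a kinase gene that ends upstream of it on the same strand. They lay at -31440, -26945, -20472 and -6121 bp from the *Bhlha15* TSS, with scores of 10.4, 14.7, 4.38 and 9.56. The highest held NFI full sites with 1 mismatch, printed among the whole peaks, and the other 3 held none. Another peak lay in the *Bhlha15* promoter at -187 bp with a score of 17.9, above all 4. *Lmtk2* itself had no promoter peak. *Rbpjl*, which encodes a subunit of the PTF1 complex, had a peak of 13.1 at -1379 bp, in intron 2 of the matrilin gene *Matn4* on the opposite strand. A peak of 12.5 at 1133 bp on the other side of the *Rbpjl* TSS lay in intron 1 of *Rbpjl* by the list's transcript, but was assigned to *Matn4*. *Ptf1a* had a peak of 6.37 at -1534 bp, in intron 2 of its antisense gene *Ptf1aos*, with a full site with 1 mismatch. No promoter peak, from -1000 bp to the TSS, was assigned to *Rbpjl* or *Ptf1a*.

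The other 3 acinar regulators were reached as hosts. *Tcf3* and *Tcf12* encode E proteins, the class of bHLH partners that PTF1A binds with. The peak in intron 8 of *Tcf3* (10.6) was assigned to *Uqcr11*, which encodes a subunit of respiratory complex III, at -11642 bp, and held an NFI full site without a mismatch and an E-box. The peak in intron 3 of *Tcf12* (5.38) lay at -9543 bp from another start of *Tcf12*, and that in intron 2 of *Gata4* (8.37) at -16567 bp from the DNA glycosylase gene *Neil2*. Both also held a full site without a mismatch.

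**Figure D5:**
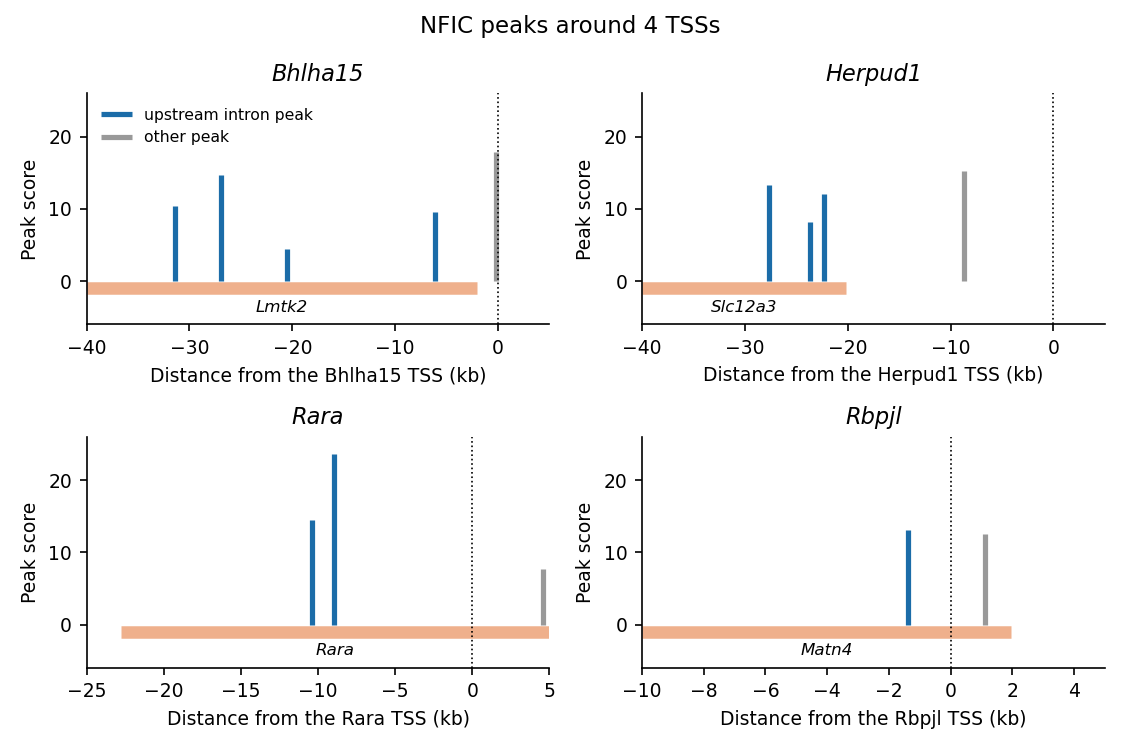
Peak score (vertical axis) by distance from the TSS in kb (horizontal axis, upstream to the left) around 4 TSSs. Blue marks upstream intron peaks, grey other NFIC peaks, an orange bar the annotated host transcript and a dotted line the TSS. At *Bhlha15* the promoter peak (17.9) exceeded the 4 peaks in *Lmtk2* (4.38 to 14.7), and at *Herpud1* an intergenic peak (15.3) exceeded the 3 peaks in *Slc12a3* (8.17 to 13.3).

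In the UPR list, *Herpud1*, which encodes a membrane protein of ER-associated degradation, had 3 peaks in the last intron, number 24, of the annotated transcript of *Slc12a3*, a sodium chloride cotransporter gene. They lay at -27647, -23646 and -22317 bp with scores of 13.3, 8.17 and 12.0. The first held a full site without a mismatch, the third sites with 1 mismatch, and the second an E-box and an NR5A2 motif but no NFI full site. An intergenic peak of 15.3 lay between them and the *Herpud1* TSS, at -8650 bp. *Slc12a3* had a promoter peak and *Herpud1* had none. *Manf*, which encodes a secreted protein induced by ER stress, had a peak of 6.57 in intron 44 of *Dock3*, at -19687 bp.

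Among nuclear receptor genes, *Rara* had peaks of 23.7 and 14.5 in intron 2, at -8955 and -10366 bp from a more downstream start of *Rara*, both with an E-box and a full site with 1 mismatch. *Rxra*, the common dimer partner of such receptors, had a peak of 10.6 in intron 1, at -9615 bp from another start, with a full site without a mismatch and an E-box. *Nr4a2*, an orphan receptor, had a peak of 8.17 in its own intron 1 and one of 17.5 at -24410 bp in the non-coding gene *BB557941*, neither with any motif searched. *Ppard*, a receptor of fatty acids, was the host of peaks assigned to non-coding genes, of which the highest (13.9) lay in intron 3, and the nearest gene of a peak of 4.18 in *Def6*. *Rora*, a receptor of the circadian clock, had 3 peaks upstream of another start of its own, with scores of 9.36, 6.57 and 3.78. *Nr2f1* was the nearest gene of a single peak (4.78), and *Nr3c2* (8.17) and *Nr6a1* (4.18) were hosts of a single peak. In *Nfia*, a paralogue of *Nfic*, a peak of 11.6 in intron 1 lay at -1103 bp from another *Nfia* start and held a full site without a mismatch. *Glis3*, a zinc finger gene of islet and duct cells, was host of a peak of 5.78 and nearest gene of one of 5.38 in *D930032P07Rik*, neither with an NFI full site.

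Single hosts held up to 9 upstream intron peaks. These were found in *Prkce*, which encodes protein kinase C epsilon, out of 13 NFIC peaks in introns of that gene. Of the 9, 7 were assigned to the non-coding gene *2010106C02Rik* on the opposite strand, with scores from 3.59 to 7.57, and 2 to the hypoxia factor gene *Epas1*, at -218693 and -106439 bp, with scores of 10.2 and 7.17. *Ptprd*, a receptor tyrosine phosphatase gene, held 6, all upstream of another *Ptprd* start, and all 6 held an NFI full site. Their scores ran from 4.78 to 15.7 and their distances from -804522 to -17478 bp. *Prdm16*, *Ttc28* and *Mcc* also held 6 each. In *Prdm16*, a transcriptional regulator of fat cell fate, 5 were assigned to the opposite-strand *Gm13133*, with scores from 3.59 to 19.9, and 1 to *Arhgef16*. In *Ttc28*, 2 lay upstream of *Mir701* (17.1 and 8.37) and 4 upstream of *Pitpnb*, with scores from 4.38 to 10.8.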

How the data were processed

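Pancreas chromatin was sequenced in 3 NFIC ChIP libraries and 1 library of input DNA, for which 1 merged, annotated peak list on mm10 was used, with 0 columns of values per sample. The submitters' processing notes name BWA, Picard and MACS2, and the paper's methods name HOMER for merging and annotation. Versions and thresholds used for these libraries are not given in the sources used here. The authors deposited a score for each peak, whose scale is not named, a focus ratio as a fraction and the distance to the nearest TSS in bp. Upstream intron peaks were selected from the annotation and distance columns. Hosts, strands and sequences were read from a RefSeq copy of GRCm38.p6, on which 94.3% of the distances were equal to the authors' distance. Peaks on chromosome 18 were counted, but none of their sequences is printed. Shares were compared by Newcombe intervals at the 95% level. No test across replicates was possible. The motif search was tested on simulated windows. Peaks, motifs and gene lists were chosen with earlier results of these data known. Genes named are those with the 10 highest scores, the 5 highest at a start of the host, the 5 closest, the 5 farthest, the hosts and nearest genes with most peaks, and list members. Alternatives varied the score, merging, annotation, chromosome X, motif window and promoter window. Python 3.11.15, numpy 2.4.6, pandas 2.3.3, scipy 1.17.1 and matplotlib 3.10.9 were used.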

Additional observations from a re-analysis of the deposited data

How the results depend on the processing

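No paired analysis was possible because the merged list holds no value for a single library, and for the same reason no library could be left out. With scores at or above the list median, 644 upstream intron peaks remained, with a median distance of -20505.5 bp. Of these peaks, 62.6% held an NFI full site and 12.4% lay in repeats. A promoter peak with a score in the same range was found for 10.6% of their nearest genes. Promoter peaks below the median were left out of this count as well, so the share cannot be set beside that for all scores. The share with an NFI full site was 16.4% without a mismatch, 44.2% in windows of 100 bp, 61.6% in windows of 400 bp and 10.2% in the windows beside the peaks. The share of nearest genes with a promoter peak was 18.005% for a window from -1000 to 100 bp, 23.2% from -1000 to 1000 bp and 17.2% from -5000 bp to the TSS, upstream intron peaks not counted. With introns and TSSs of the RefSeq copy, 1246 peaks met the rule, 1124 of them the same peaks, and with protein-coding TSSs 1112 did. Merging peaks within 1000 bp and leaving out chromosome X moved no share, median distance or difference past its counting error. Of 3 alternatives chosen after the data were seen, neither 1 peak per host nor downstream peaks over 1000 bp past the TSS did so. The other, placed hosts, concerned the number of peaks alone. That number was 1163 with merging, 1171 without chromosome X and 1167 with placed hosts, against 1184 in the main setting. The differences in NFI full site and in score against downstream intron peaks had intervals that included 0 in all alternatives run, although that in NFI full site was positive without a mismatch (0.180 points), in windows of 100 bp (0.0736 points) and with scores at or above the median (0.224 points). The unknown depth and score scale limit what the list shows to presence and rank of peaks.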

Other observations

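The peak in intron 9 of *Vav3*, with the fifth highest score among upstream intron peaks (25.5), also had the highest focus ratio among them (0.941, against a median of 0.692). It lay in an L1Md_T element, a young LINE family, and had neither an NFI full site nor an NFI arm. Whether reads of other copies of the element contributed to this peak was not tested, since the list holds no value of the input DNA. For 12 upstream intron peaks the RefSeq copy places the annotated host transcript elsewhere in the genome, and for 5 the host accession is not in the copy.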
